A study of Mus musculus with 15 samples.

Results

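Mitosis and spindle checkpoint genes were followed in the uterus of ovariectomized mice after a single injection of estradiol (E2) or estriol (E3). The set holds 51 genes, chosen by name for their roles in mitotic entry, the spindle, the checkpoint, chromosome structure, and cell division, out of the 27962 gene names carried by the array. Each gene was read from its brightest probe. *Mad2l1* was treated apart from the 50 other genes because its transcript was already high 2 hr after injection, so its rise at 2 hr is described here and not tested.

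The mice were adult, at least 10 weeks old, and had rested for 10 to 14 days after ovariectomy. They received 250 ng of E2 or 250 ng of E3 in 100 ul of saline, or saline alone, by intraperitoneal injection, and uterine RNA was labeled with Cy3 and hybridized to one-color Agilent arrays. There were 5 groups of 3 arrays: saline at 24 hr, E2 at 2 hr, E3 at 2 hr, E2 at 24 hr, and E3 at 24 hr. The mice of the E2 group at 2 hr were labeled as C57bl6/Jx129 with WT *Esr1*, and those of all other groups as C57bl6/J, with no *Esr1* genotype given. No saline group at 2 hr was analysed here, so both times were compared with saline at 24 hr. The labels describe each uterus as homogenized by itself whereas the methods speak of pooled tissue, so whether an array stands for a single mouse cannot be told.

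Ovariectomy removes the main source of estrogen, and the uterine epithelium then rests until estrogen is given, when it passes through a wave of DNA synthesis and mitosis. Entry into mitosis is driven by cyclin-dependent kinase CDK1 bound to A and B cyclins, spindle assembly by Aurora and Polo kinases and kinesin motors, and exit by the anaphase-promoting complex, which marks cyclins and securin for destruction. The spindle checkpoint holds that complex back, through the proteins MAD2 and BUBR1, until every kinetochore is attached to microtubules. E3 is a weaker estrogen than E2 and differs from it by an additional hydroxyl group.

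All values below are levels on the log2 scale relative to the 75th percentile of the processed signal of the same array, given for replicates 1, 2, and 3, and all differences are in log2. All 51 genes lay above background on all 15 arrays and none was saturated. The arrays had between 31992 and 33614 probes above background, and their number, 3 per group, limited the precision. The 3 E2 arrays at 2 hr lay on slides of their own and were read on another scanner and another day, so strain, slide, scanner, and day cannot be told apart from E2 at 2 hr. The E2 and the E3 arrays at 24 hr each lay on slides that held no other group, so slide cannot be told apart from group at 24 hr. All 7 uterus markers were above background on every array but replicate 1 of E2 at 24 hr, where 6 were. Transcripts of other tissues also varied. The summed linear level of 9 liver markers was 6.11 to 22.9 on the saline arrays, 1.49 to 3.83 on the E3 arrays and 0.0385 to 0.0472 on the E2 arrays at 2 hr, and 0.282 to 0.581 on the treated arrays at 24 hr. Exocrine pancreas markers summed to 471 and 9.98 on replicates 2 and 3 of E3 at 2 hr and to 218 and 4.35 on replicates 2 and 3 of E2 at 24 hr, against at most 0.458 elsewhere. Lymphoid markers were high on 5 arrays and are given beside the results that they touch. The part of these transcripts in the results was not tested.

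Promoter sequence was not used in the choice of genes. RefSeq windows (GRCm38.p6) from 250 bases before to 50 bases after the start were at hand for 43 of the 51 genes and for 27025 genes in all. The 43 include *Mad2l1* and also *Pttg1*, *Smc2*, *Cdc25b*, and *Bub3*, which were called with neither compound at 24 hr, and the last 3 of these held both motifs described next. The cell cycle genes homology region (CHR), bound by MuvB complexes that keep late cell cycle genes off in resting cells and turn them on before mitosis, was searched as TTTGAA or TTCGAA on both strands. It was present in 76.7% of the 43 genes and in 21.7% of all genes, and within 50 bases of the start in 69.8% and 6.12%. The CCAAT box, bound by NF-Y and searched as CCAAT on both strands, was present in 79.1% and 41.1%, and both motifs together in 69.8% and 9.65%. CHR and CCAAT matches shared bases in 1 of the 43 genes. Among 34 DNA replication genes with a window, 23.5% held a CHR and 64.7% a CCAAT box, while E2F sites (TTTGGCGC, TTTCGCGC, or TTTCCCGC, both strands) were found in 38.2% of them, in 6.98% of the 43 mitosis genes, and in 2.12% of all genes. The single arm of the estrogen response element, GGTCA on either strand, was found in 37.2% of the 43 genes and in 43.6% of all genes, and the full element GGTCANNNTGACC in none of the 43 and in 0.074% of all. The *Mad2l1* window held neither a CHR nor a CCAAT box, and it held 3 copies of GGTCA, a number reached by 6.98% of the 43 genes and 2.7% of all genes. This did not set it apart from the late genes, since *Plk4* had the same counts and *Birc5*, *Ncaph*, and *Nusap1* also held neither motif. The 180 bases before the start are shown for *Mad2l1*, the early gene, and for 4 late genes whose values follow. They lie at chr6:66535041-66535220 (plus strand), at chr10:69352913-69353092 (minus), at chr9:70421555-70421734 (minus), at chr2:164769749-164769928 (plus), and at chr11:99024190-99024369 (minus). Capitals mark GGTCA in *Mad2l1* and CHR and CCAAT matches on either strand in the others. These matches are a description of letters and not of bound sites.
Mad2l1: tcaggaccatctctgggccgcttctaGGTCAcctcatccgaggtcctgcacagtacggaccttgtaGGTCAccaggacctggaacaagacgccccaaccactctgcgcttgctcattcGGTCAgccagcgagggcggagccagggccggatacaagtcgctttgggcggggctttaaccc
Cdc2a: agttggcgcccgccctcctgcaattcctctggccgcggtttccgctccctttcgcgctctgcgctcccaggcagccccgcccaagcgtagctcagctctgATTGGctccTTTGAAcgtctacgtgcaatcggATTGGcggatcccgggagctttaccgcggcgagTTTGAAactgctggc
Ccnb2: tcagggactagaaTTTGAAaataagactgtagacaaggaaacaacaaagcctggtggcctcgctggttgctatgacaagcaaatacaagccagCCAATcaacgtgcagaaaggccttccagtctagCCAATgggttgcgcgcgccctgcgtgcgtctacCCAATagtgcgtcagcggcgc
Ube2c: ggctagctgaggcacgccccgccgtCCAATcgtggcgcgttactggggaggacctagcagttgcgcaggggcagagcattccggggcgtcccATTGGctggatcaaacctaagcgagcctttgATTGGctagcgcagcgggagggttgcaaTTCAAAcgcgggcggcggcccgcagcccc
Top2a: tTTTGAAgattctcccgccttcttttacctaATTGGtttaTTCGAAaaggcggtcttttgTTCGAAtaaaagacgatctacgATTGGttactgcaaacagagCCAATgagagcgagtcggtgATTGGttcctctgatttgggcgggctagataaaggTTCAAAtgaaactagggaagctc

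*Mad2l1*, the checkpoint protein that inhibits the anaphase-promoting complex, had its peak at 2 hr. Its levels were -1.19, -0.86, and -1.23 with saline, 2.74, 2.72, and 2.87 2 hr after E2, and 3.32, 3.35, and 3.16 2 hr after E3. All 6 arrays at 2 hr lay far above the saline arrays, by 14.6-fold after E2 and 20.7-fold after E3 in the group means. Against the 1 saline array that shared a slide with the 3 E3 arrays at 2 hr, the difference was 4.5. At 24 hr the levels were 1.00, 0.68, and 1.04 with E2 and 0.40, 0.23, and -0.24 with E3. These were lower than at 2 hr, by 1.87 with E2 and 3.15 with E3, with no test since the 2 hr values set the gene apart, yet all 6 arrays remained above all 3 saline arrays. The rise over saline at 24 hr was 2.00 ± 0.16 (SE), or 4-fold, after E2 (adjusted p = 1.17e-06) and 1.22 ± 0.16, or 2.34-fold, after E3 (adjusted p = 0.00028). At 2 hr the *Mad2l1* mean was higher after E3 than after E2 by 0.50, given with no test, and at 24 hr it was lower after E3 by 0.78 (95% interval -1.12 to -0.43, adjusted p = 0.00275). Neither difference reached 2-fold, and the groups did not overlap at either time. The change in the E3 minus E2 difference from 2 to 24 hr was -1.27 ± 0.23, again with no test. It was -1.08 without the 5 arrays high in the B cell marker *Ms4a1*, which left a single array of E3 at 2 hr. A second *Mad2l1* probe gave differences from saline of 3.78 and 4.30 at 2 hr and of 2.10 and 1.23 at 24 hr, for E2 and E3.

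**Figure D1:**
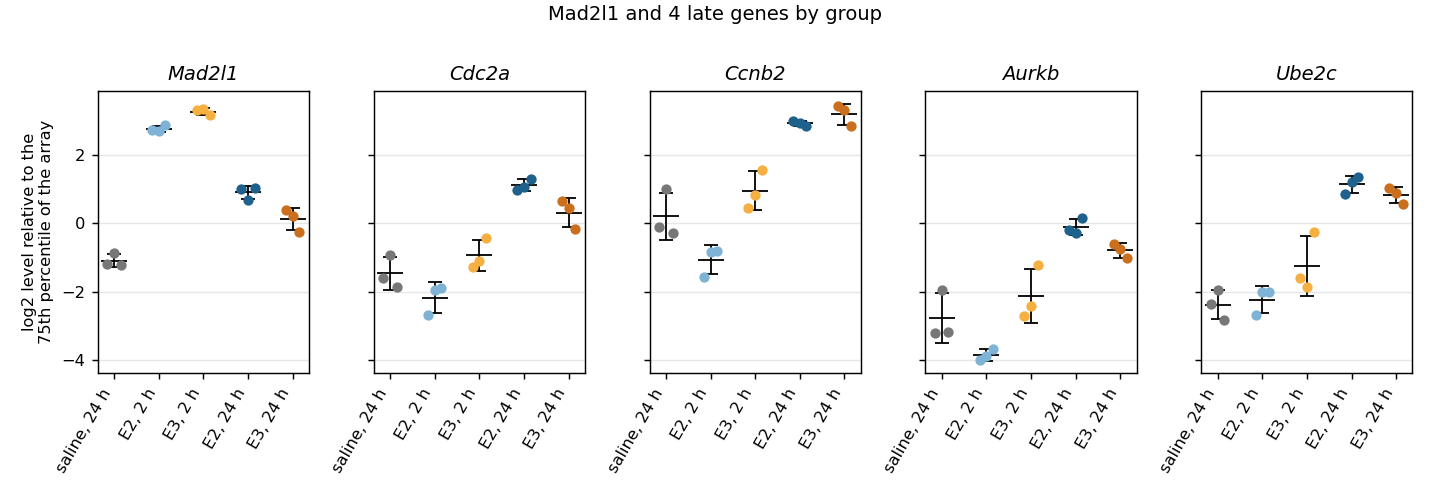
Level of *Mad2l1* and of 4 late genes (log2 relative to the 75th percentile of the array) in the 5 groups; each point is 1 array, the long bar is the group mean, and the error bars are the SD of 3 arrays. *Mad2l1* is highest at 2 hr with both compounds, between 2.72 and 3.35, whereas *Cdc2a*, *Ccnb2*, *Aurkb*, and *Ube2c* are highest at 24 hr.

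The rest of the set answered late. Calls here are p below 0.001 with at least a 2-fold change, and adjusted p-values are over all probes tested. At 24 hr, 46 of the 51 genes were higher after E2 and none lower, where 6.95% of all 34765 probes were called higher. After E3, 43 of the 51 were higher and none lower, against 1.85% of all probes called higher. Over all probes, more were called lower than higher with each compound. The median difference from saline over the 51 genes was 2.45 after E2 and 2.19 after E3, while over all probes it was -0.06 and -0.01. Both comparisons share the 3 saline arrays. The 43 genes called after E3 were all called after E2, 3 genes were called after E2 alone (*Incenp*, *Top2a*, and *Plk4*), none after E3 alone, and 5 after neither (*Pttg1*, *Smc2*, *Smc4*, *Cdc25b*, and *Bub3*). In whole uterus, more dividing cells and more transcript per cell cannot be told apart. Markers of the epithelium, the tissue layer in which estrogen is known to induce division, were called higher for 4 of 7 genes after E2 at 24 hr and for 0 of 7 after E3, with medians of 1.03 and 0.64 and adjusted p below 0.05 for 6 of 7 in each. Of 6 smooth muscle markers, 2 were called higher after E2 (*Actg2*, 2.41-fold, and *Des*, 2.23-fold) and 1 after E3 (*Actg2*, 2.17-fold), and of 6 stromal markers 1 with each (*Col1a1*, 2.68-fold and 2.31-fold). Skeletal muscle *Acta1* and *Ckm* were called higher after E2 (2.81-fold and 2.12-fold, of 5 markers) and endothelial *Cdh5* lower (2.08-fold, of 5), with none of either list called after E3. None of 6 fat markers was called, but their median was -1.72 after E2 and -0.64 after E3. The part of these cell types in the results was not tested. Some calls depended on single arrays. Without saline replicate 1 or 3, 38 genes were called after E3, with *Aurkb*, *Cdca5*, *Espl1*, *Mki67*, and *Ncapg* lost, and without replicate 1 or 2 of E3 at 24 hr 37 and 39 were called. After E2 the genes lost without 1 array were *Cenpa*, *Mki67*, and *Bub1b*.

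**Figure D2:**
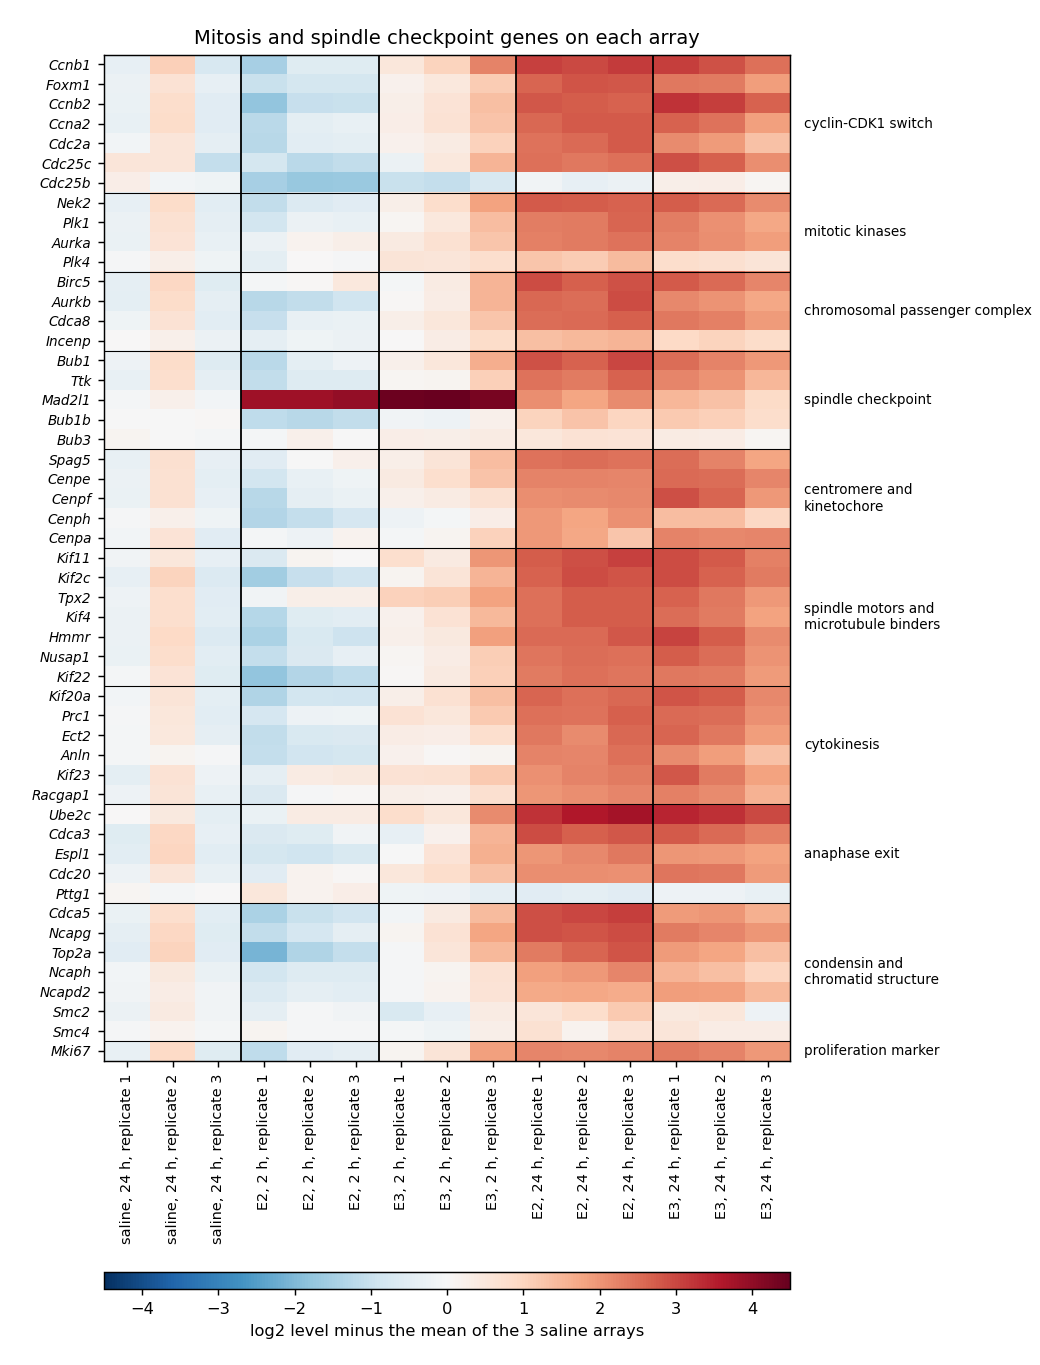
Log2 level of each of the 51 genes on each of the 15 arrays minus its mean on the 3 saline arrays, ordered by role (right) and by group and replicate (bottom). Nearly all genes are higher in the 6 columns at 24 hr, with medians over the genes of 2.45 (E2) and 2.19 (E3), and *Mad2l1* is highest at 2 hr.

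The switch that starts mitosis rose with both compounds. *Cdc2a*, the array's name for *Cdk1*, the kinase itself, lay at -1.60, -0.93, and -1.86 with saline, at 0.99, 1.07, and 1.31 24 hr after E2, and at 0.65, 0.45, and -0.15 24 hr after E3. All 6 treated arrays lay above the saline arrays, by 6.02-fold after E2 (2.59 ± 0.31, adjusted p = 1.98e-05) and 3.43-fold after E3 (1.78 ± 0.31, adjusted p = 0.0013). *Ccnb2*, cyclin B2, was at -0.10, 1.00, and -0.30 with saline, 3.01, 2.93, and 2.87 with E2, and 3.44, 3.31, and 2.85 with E3. It rose by 6.64-fold and 8-fold, with no overlap with saline. *Ccnb1*, cyclin B1, had the highest E2 value of this group, 3.06 ± 0.48 (8.37-fold, adjusted p = 0.000161), and rose by 2.83 after E3. Cyclin A2 (*Ccna2*), the transcription factor *Foxm1*, which drives mitotic genes, and the CDK1-activating phosphatase *Cdc25c* rose by 2.70, 2.74, and 2.45 after E2 and by 2.31, 2.20, and 2.55 after E3. The related phosphatase *Cdc25b* did not share this pattern. It lay at 2.48, 2.07, and 1.99 with saline, 2.02, 1.82, and 1.92 with E2, and 2.45, 2.49, and 2.28 with E3, and both treated groups overlapped with saline.

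The mitotic kinases *Nek2*, *Plk1*, and *Aurka*, which act at the centrosomes and spindle, rose by 2.71, 2.42, and 2.34 after E2 and by 2.46, 2.03, and 2.07 after E3. *Plk4*, which controls centriole duplication, moved least of the 4. Its levels were -3.07, -2.76, and -3.21 with saline, -1.78, -1.87, and -1.59 with E2, and -2.23, -2.28, and -2.41 with E3. The E2 arrays stood highest and the E3 arrays between the 2 other groups, a rise of 1.26 ± 0.14 after E2 (adjusted p = 1.23e-05) and a difference of 0.70 ± 0.14 after E3 (adjusted p = 0.00289), short of 2-fold.

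The chromosomal passenger complex corrects faulty attachments and helps to place the cleavage furrow. *Aurkb*, its kinase, lay at -3.20, -1.94, and -3.18 with saline, -0.20, -0.28, and 0.15 with E2, and -0.61, -0.75, and -1.03 with E3. It rose by 6.34-fold after E2 (2.67 ± 0.38, adjusted p = 7.1e-05) and by 3.95-fold after E3 (1.98 ± 0.38, adjusted p = 0.00212), and the highest saline array, replicate 2, was below every treated array at 24 hr. The survivin gene *Birc5* and the borealin gene *Cdca8* rose by 2.83 and 2.58 after E2 and by 2.5 and 2.19 after E3. The scaffold *Incenp* rose less, with levels of 2.15, 2.36, and 1.86 with saline, 3.47, 3.58, and 3.64 with E2, and 3.04, 3.13, and 2.95 with E3. Its rise was 1.44 ± 0.18 after E2 (adjusted p = 2.53e-05), and its difference after E3 was 0.91 ± 0.18 (adjusted p = 0.0024), under 2-fold.

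Among the checkpoint genes, the kinases *Bub1* and *Ttk* rose by 2.84 and 2.48 after E2 and by 2.24 and 1.91 after E3. *Bub1b*, which encodes BUBR1, lay at -0.84, -0.84, and -0.74 with saline, 0.20, 0.47, and 0.16 with E2, and 0.38, 0.28, and -0.03 with E3. All treated arrays were above all saline arrays, but the rise was small, 1.08 ± 0.13 after E2 (adjusted p = 2.51e-05) and 1.02 ± 0.13 after E3 (adjusted p = 0.000292), and the E3 call was lost under 3 other ways of scaling or correcting the signal. *Bub3*, which brings BUB1 and BUBR1 to kinetochores, was at 2.67, 2.53, and 2.47 with saline, 3.06, 3.20, and 3.17 with E2, and 2.94, 2.89, and 2.66 with E3. Its differences were 0.59 ± 0.10 and 0.27 ± 0.10, under 2-fold, and its 3 probes disagreed in direction after E2 at 24 hr, from -0.56 to 0.59.

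Centromere and kinetochore genes all rose. *Spag5*, which binds microtubules at the kinetochore, rose by 2.47 after E2 and 2.18 after E3, and the motor *Cenpe* and the matrix protein *Cenpf* by 2.22 and 2.12 after E2 and by 2.41 and 2.49 after E3. *Cenpa*, the histone variant that marks centromeres, lay at -2.29, -1.54, and -2.67 with saline, -0.22, -0.43, and -0.91 with E2, and 0.07, 0.01, and 0.05 with E3. Its rises were 1.65 ± 0.31 (adjusted p = 0.000623) and 2.21 ± 0.31 (adjusted p = 0.000407), and the E3 arrays were the tightest of the groups. A second *Cenpa* probe gave 1.12 and 1.37 and was not called. *Cenph* rose by 1.93 and 1.24, but a second, dimmer probe gave 1.00 and 0.34 and was not called. All 7 spindle motors and microtubule binders rose, with values from 2.40 (*Kif22*) to 2.90 (*Kif11*, the motor that pushes spindle poles apart) after E2 and from 2.21 (*Kif22*) to 2.65 (*Kif11*) after E3, the other 5 being *Kif2c*, *Kif4*, *Tpx2*, *Hmmr*, and *Nusap1*. All 6 cytokinesis genes rose too, from 2.09 (*Racgap1*) to 2.56 (*Kif20a*) after E2 and from 1.78 (*Anln*) to 2.56 (*Kif20a*) after E3, with *Prc1*, *Ect2*, and *Kif23* between.

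Anaphase and exit genes held both ends of the range. *Ube2c*, the ubiquitin-conjugating enzyme that works with the anaphase-promoting complex, had the highest E2 value of the set. Its levels were -2.38, -1.96, and -2.82 with saline, 0.87, 1.21, and 1.35 with E2, and 1.03, 0.90, and 0.58 with E3. All 6 treated arrays were above zero and all saline arrays below it, a rise of 3.53 ± 0.37 or 11.6-fold after E2 (adjusted p = 7.06e-06) and 3.22 ± 0.37 or 9.33-fold after E3 (adjusted p = 0.000154). *Cdc20*, the activator of that complex, *Cdca3*, and *Espl1*, the separase that cuts cohesin, rose by 2.08, 2.80, and 2.17 after E2 and by 2.23, 2.53, and 1.91 after E3. *Pttg1*, which encodes securin, the inhibitor of separase, ran the other way, at 3.66, 3.49, and 3.61 with saline, 3.06, 3.13, and 3.07 with E2, and 3.36, 3.36, and 3.26 with E3. All 6 treated arrays lay below the saline arrays, with differences of -0.50 ± 0.10 after E2 (adjusted p = 0.000765) and -0.26 ± 0.10 after E3 (adjusted p = 0.0587), both under 2-fold.

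Chromosome structure genes were split. *Cdca5*, or sororin, which protects cohesion, lay at -1.09, -0.03, and -1.26 with saline, 2.10, 2.22, and 2.31 with E2, and 1.12, 1.2, and 0.82 with E3, and rose by 3.00 ± 0.37 or 8.02-fold after E2 (adjusted p = 2.45e-05) and by 1.84 ± 0.37 or 3.58-fold after E3 (adjusted p = 0.00285). *Top2a*, the topoisomerase that untangles sister chromatids, was at -2.48, -0.97, and -2.47 with saline, 0.37, 0.66, and 0.85 with E2, and -0.04, -0.19, and -0.62 with E3. It rose by 2.60 ± 0.44 after E2 (adjusted p = 0.000294), and its E3 difference of 1.69 ± 0.44 (adjusted p = 0.0121) missed the threshold, although all 3 E3 arrays lay above all saline arrays. Without saline replicate 2 the E3 difference was 2.19 and was called. The condensin I subunits *Ncapg*, *Ncaph*, and *Ncapd2* rose by 2.88, 2.00, and 1.70 after E2 and by 2.18, 1.28, and 1.72 after E3. The core subunits *Smc2* and *Smc4*, which are shared by both condensins, were not called, with *Smc2* at -1.35, -0.68, and -1.26 with saline, -0.55, -0.31, and 0.06 with E2, and -0.66, -0.59, and -1.34 with E3, and *Smc4* at 2.38, 2.61, and 2.34, 3.11, 2.59, and 3.07, and 3.00, 2.79, and 2.78. Their E2 differences were 0.83 ± 0.29 and 0.48 ± 0.15 (adjusted p = 0.0233 and 0.0155), and 2 of 4 *Smc2* probes were called. *Mki67*, the Ki67 antigen of cycling cells, lay at 0.74, 1.96, and 0.54 with saline, 3.29, 3.24, and 3.33 with E2, and 3.43, 3.32, and 3.02 with E3, a rise of 4.61-fold and 4.52-fold (adjusted p = 0.000722 and 0.00243).

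The direct comparison of the compounds at 24 hr called none of the 51 genes by limma, where 2.75% of all probes were called higher after E3 than after E2 and 2.09% lower. At an unadjusted p under 0.05 there were 2 genes higher after E3 (*Cdc25b* and *Pttg1*) and 9 lower, and 9 genes had an adjusted p below 0.05. The median difference was -0.27 over the 51 genes and 0.06 over all probes. Among epithelial markers, *Cldn7* was called lower after E3 (-1.29), while *Krt18* and *Epcam* differed by 0.02 and -0.15, and their part was not tested. The 95% intervals of 40 genes included 0, and those of 22 genes lay wholly within 2-fold in either direction, while the others reached past 2-fold. The intervals reached from -1.97 to 1.24. *Cdca5* had the greatest difference, -1.16 (95% interval -1.97 to -0.36, adjusted p = 0.0277), its 3 E3 arrays all below its 3 E2 arrays. *Top2a* and *Cdc2a* followed with -0.91 (95% interval -1.87 to 0.06) and -0.81 (95% interval -1.49 to -0.13, adjusted p = 0.0596). *Cenph*, *Ncaph*, *Plk4*, *Anln*, *Incenp*, and *Bub3* were lower after E3 by between 0.31 and 0.72, each with an adjusted p below 0.05. *Cdc25b* was higher after E3 by 0.49 (95% interval 0.20 to 0.78, adjusted p = 0.0134), with no overlap. For *Kif20a* and *Hmmr* the differences were 0.00 and 0.01, with intervals of -0.65 to 0.66 and -0.96 to 0.98. The arrays did not overlap for 19 genes lower and 3 higher after E3, where 21.9% and 28.9% of all probes did not overlap in these directions.

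**Figure D3:**
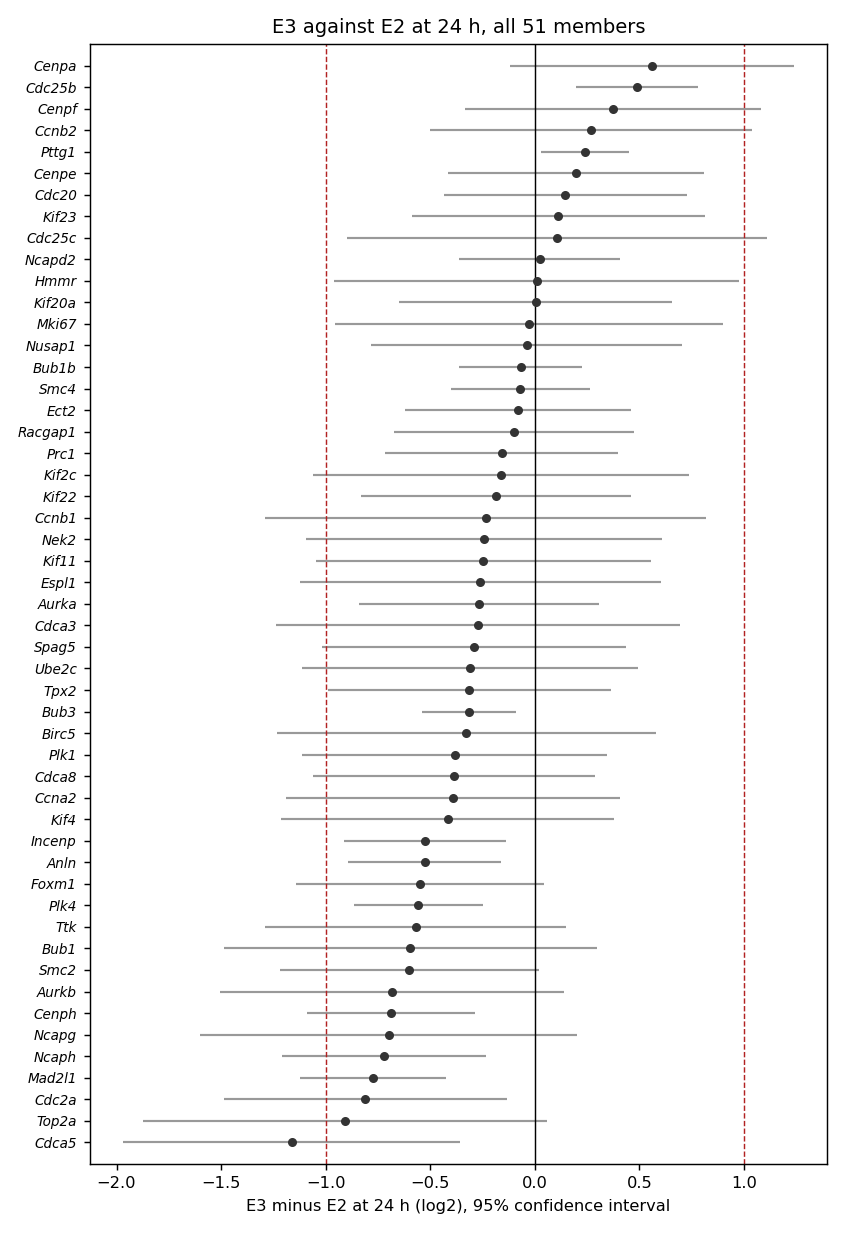
E3 minus E2 at 24 hr (log2) for each of the 51 genes, ordered by size; points are differences of the means of 3 arrays, lines are 95% intervals, and dashed lines mark a 2-fold difference. The points run from -1.16 (*Cdca5*) to 0.56 (*Cenpa*), and 40 of the intervals cross 0.

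A list of 43 DNA replication genes, taken as a reference for the phase before mitosis, gave other counts. After E2 at 24 hr, 27 of the 43 were called higher with a median of 1.25, and after E3, 3 of 43 with a median of 0.33, where 6.95% and 1.85% of all probes were called higher. In the direct comparison 17 of 43 were called lower after E3, where 2.09% of all probes were, with a median of -0.91, beside none of the 51 mitosis genes with a median of -0.27. *Cdc6*, which loads the replicative helicase, differed by -2.29 between E3 and E2 and *Mcm10* by -2.02 (adjusted p = 0.000854 and 0.00107). Whether the lists differ from each other was not tested.

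Apart from *Mad2l1*, which was set apart for its 2 hr level, no gene of the set was called higher at 2 hr with either compound. After E2, none of the 50 was called higher, with 10.8% of all probes called higher, and 4 were called lower (*Cdc25b*, *Kif22*, *Bub1b*, and *Cenph*), a share near the 10.3% of all probes called lower. *Cdc25b* was at 0.69, 0.47, and 0.52 2 hr after E2, all below saline, and fell by 1.62 ± 0.13 or 3.08-fold (adjusted p = 7.16e-07). *Bub1b* was at -1.95, -2.05, and -1.93 and fell by 1.17 ± 0.13 or 2.25-fold (adjusted p = 1.03e-05). *Kif22*, a chromosome-binding motor, and *Cenph* fell by 1.41 and 1.05, but neither was called once saline replicate 2 or replicate 1 of E2 at 2 hr was left out, which left *Cdc25b* and *Bub1b*. A second *Cenph* probe gave -2.54. The median over the 50 genes was -0.67, with 42 below 0, while the median over all probes was -0.06. With 1 array left out the median over all 51 genes lay between -0.91 and -0.29, the latter without saline replicate 2 alone.

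After E3 at 2 hr the late genes leaned the other way. None of the 50 was called higher, with 4.83% of all probes called higher, but 45 of the 50 were above saline in their means, with a median of 0.63 against -0.09 for all probes. With 1 array left out the median, here over all 51 genes, lay between 0.31, without replicate 3 of E3 at 2 hr, and 1.00, without saline replicate 2. *Tpx2*, which targets Aurora A to the spindle, had the highest value of the late genes, with levels of -1.99, -1.0, and -2.26 with saline and -0.70, -0.65, and 0.07 with E3. Its difference was 1.32 ± 0.31 or 2.5-fold (adjusted p = 0.00368), and it passed the threshold without saline replicate 2. Without that array, which had the highest value of its group for 45 of the 50 late genes, 4 of the late genes were called (*Tpx2*, *Aurka*, *Cdc20*, and *Cenpe*). *Cdc25b* was lower at 2 hr after E3 too, at 1.19, 1.13, and 1.46, with no overlap with saline and a difference of -0.93 ± 0.13 (adjusted p = 0.000111). The arrays of E3 at 2 hr and saline did not overlap for 4 of the 50 late genes higher after E3, where 22.8% of all probes did not overlap in that direction. On the slide that held all 3 E3 arrays at 2 hr and 1 saline array, 30 of 51 genes, *Mad2l1* among them, were at least 2-fold higher and none 2-fold lower, with a median of 1.08 and no test. Of all probes, 8.42% were at least 2-fold higher there and 11.1% lower, with a median of -0.05. That saline array was replicate 3, the lowest of its group for 41 of the 50 late genes.

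The late genes varied between the arrays of a group, and so did lymphoid markers, with no one relation that held in all groups. On the scale of the mean log2 level of 8 lymphoid markers, the arrays stood at -3.10, -0.60, and -2.98 with saline, -3.34, -3.46, and -3.53 at 2 hr after E2, -2.71, -1.33, and -0.03 at 2 hr after E3, -1.63, -2.45, and -3.20 at 24 hr after E2, and -3.07, -3.27, and -0.87 at 24 hr after E3. The summed linear level was 3.00 to 15.9 with saline, 2.18 to 2.61 and 3.79 to 25.5 at 2 hr after E2 and E3, and 2.83 to 7.99 and 2.88 to 14.7 at 24 hr, and all 8 markers were above background on every array but replicate 3 of E2 at 2 hr, where 7 were. The median level of the 50 late genes was -1.64, -0.80, and -1.83 with saline, -2.11, -1.88, and -1.76 at 2 hr after E2, -1.12, -0.97, and -0.34 at 2 hr after E3, 0.85, 1.03, and 1.15 at 24 hr after E2, and 0.97, 0.75, and 0.33 at 24 hr after E3. The arrays highest in lymphoid markers among saline and E3 at 2 hr were also highest in late genes, for 45 and 48 of the 50. At 24 hr after E3 the array highest in lymphoid markers was lowest in late genes, for 49 of the 50, and in both E2 groups the medians of the late genes ran opposite to the lymphoid markers. The summed level of 7 myeloid markers was highest on the same 3 arrays, at 94.6 on saline replicate 2, 104 on replicate 3 of E3 at 2 hr, and 114 on replicate 3 of E3 at 24 hr, against 50.2 to 80.2 on all others. *Mad2l1* did not vary in this way at 2 hr after E3, where the array highest in lymphoid markers had its lowest value. The part of lymphoid or myeloid cells in the late genes' spread was not tested. With the 5 arrays of high *Ms4a1* left out, 47 genes were called at 24 hr after E2 and 45 after E3, with medians of 2.81 and 2.67. With the lymphoid mean as a covariate the counts were 46 and 43.

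**Figure D4:**
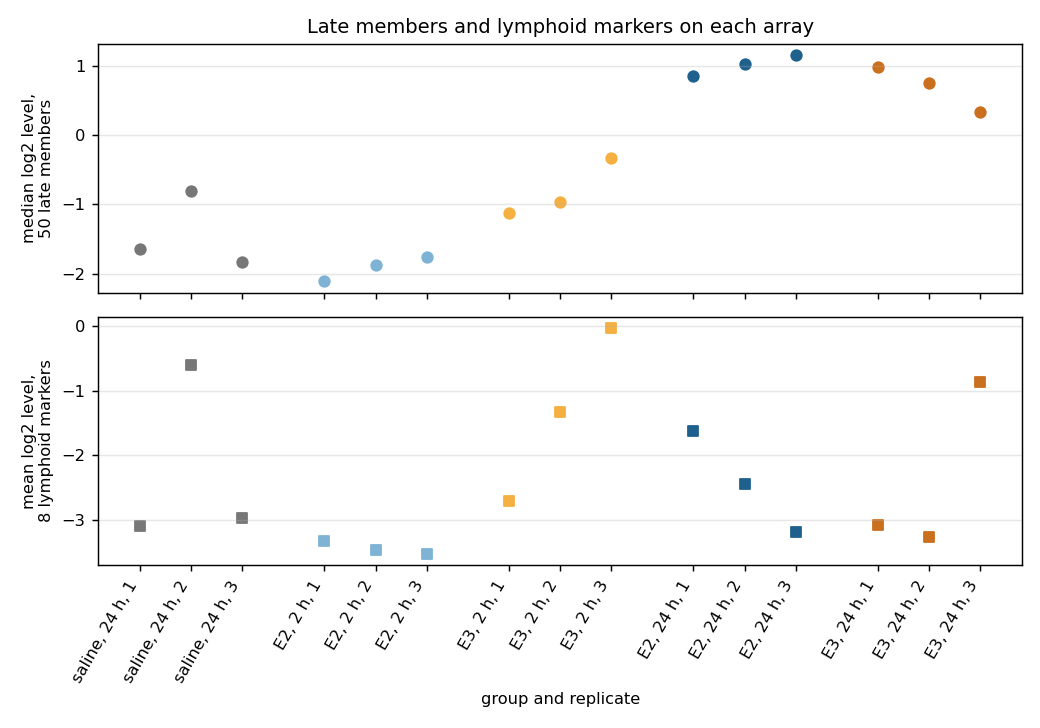
Median log2 level of the 50 late genes (top) and mean log2 level of 8 lymphoid markers (bottom) on each array, by group and replicate. The late genes separate the hormone-treated arrays at 24 hr (0.33 to 1.15) from all others, saline included (-2.11 to -0.34), and the lymphoid markers are highest on saline replicate 2, E3 2 hr replicate 3, and E3 24 hr replicate 3.

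At 2 hr the late genes lay higher after E3 than after E2. In the direct comparison at 2 hr, 16 of the 50 late genes were called higher after E3, with 1.54% of all probes called higher, and the median difference was 1.19 against -0.06 for all probes. All 9 liver markers were also called higher after E3 in this comparison, by 4.21-fold to 400-fold, and their part in it was not tested. The called genes were *Cenpe*, *Cenph*, *Aurkb*, *Cdca5*, *Top2a*, *Ccnb1*, *Ccnb2*, *Foxm1*, *Anln*, *Ect2*, *Kif20a*, *Prc1*, *Nek2*, *Bub1b*, *Kif22*, and *Kif2c*. As for *Top2a* below, not every tested probe was called for *Ccnb1* (1 of 3), *Cenpe* (2 of 3), and *Anln* and *Ect2* (1 of 2 each). *Top2a* had the highest value, at -4.06, -3.32, and -3.04 after E2 and -2.02, -1.43, and -0.53 after E3, a difference of 2.15 (95% interval 1.18 to 3.11, adjusted p = 0.00216). That value rests on its brightest probe, since its 2 other probes gave 0.82 and 0.20 and were not called. *Anln*, which shapes the contractile ring, had the lowest, 1.02 (95% interval 0.66 to 1.39). This count was not stable: it was 3 with the lymphoid mean as a covariate, 4 without replicate 1 of E2, 5 without replicate 3 of E3, and 26 without saline replicate 2. No count is given without the 5 arrays of high *Ms4a1*, since a single array of E3 at 2 hr was then left. Strain, slide, scanner, and day also differ between these 2 groups and cannot be told apart from the compound.

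Between the times, 46 of the 50 late genes were higher at 24 than at 2 hr after E2 and none lower, where 13.5% and 17.6% of all probes were called higher and lower. *Mad2l1*, lower at 24 than at 2 hr, is not in these counts. E2 at 2 hr also differed in strain, slide, scanner, and day, which cannot be told apart from time or compound wherever that group enters. Markers moved too after E2, such as epithelial *Krt19* (4.31-fold higher) and endothelial *Cdh5* (2.28-fold lower), and their part was not tested. After E3, 27 were higher, with 9.31% of all probes, and none lower, with 6.66%. The medians were 3.02 after E2 and 1.48 after E3. The E3 count was 41 without replicate 3 of E3 at 2 hr. It fell with replicate 1 or 2 of either E3 group left out, to 17 or 18 with *Mad2l1* counted. The change of the E3 minus E2 difference from 2 to 24 hr was called lower for 12 of the 50 late genes, with 4.41% of all probes, and its median was -1.5. It went from 2.15 to -0.91 for *Top2a*, for which 1 of 3 probes was called, from 1.67 to -1.16 for *Cdca5*, and from 1.73 to -0.68 for *Aurkb*. With the lymphoid covariate *Top2a* was not called.

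Other genes of mitosis, from lists by role, gave a mixed picture at 24 hr, where 6.95% of all probes were called higher after E2 and 1.85% after E3. Of 29 other kinetochore genes, 16 were higher after E2 and 11 after E3, led by *Spc24*, a subunit of the NDC80 complex that grips microtubules, with 3.82 and 2.61, and followed by *Cenpm* (2.72 and 2.05) and *Ndc80* (2.71 and 2.21). Of 35 other spindle and cytokinesis genes, 22 were higher and 1 lower after E2, and 19 were higher after E3. The kinases *Melk* and *Pbk* rose by 3.09 and 2.85 after E2 and by 2.26 and 1.57 after E3, and *Dlgap5*, which stabilizes spindle microtubules, by 2.92 and 2.80. None of the 16 genes of the anaphase-promoting complex and its regulators was called with either compound, with medians of 0.22 and 0.11, a count near that share of all probes in a list of this size. In the cohesin list, 4 of 16 genes were higher after E2 and 3 after E3, among them the acetyltransferase *Esco2* (2.71 and 1.59) and the shugoshins *Sgol2* and *Sgol1*, which guard centromeric cohesion (2.58 and 2.56 after E2). Of 16 CDK1 modifiers and mitotic phosphatases, 5 were higher with each compound, such as *Cdkn3*, *Ccnf*, and *Mastl*, which rose by 2.49, 2.40, and 2.35 after E2. Among 17 MuvB, Myb, and E2F repressor genes, 4 were higher and 1 lower after E2. None was called after E3, and this E3 count is again near the share of all probes. *E2f8*, *Mybl2*, and *E2f7* rose by 3.05, 2.75, and 2.29 after E2 and differed from saline by 1.15, 0.94, and 0.91 after E3.

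Over these lists, 8 of 129 genes were called higher at 2 hr after E2 and 5 of 129 after E3, where 10.8% and 4.83% of all probes were. The 3 with the highest values are given here. *Plk2*, a Polo kinase known as an early response gene, was at 0.50, 0.22, and 0.30 with saline, 5.11, 4.30, and 4.56 2 hr after E2, and 4.09, 3.44, and 3.44 2 hr after E3, and returned to 0.12, -0.38, and -0.04 and -0.14, -0.19, and 0.12 at 24 hr. It rose by 4.32 ± 0.22 or 19.9-fold with E2 and 3.32 ± 0.22 or 9.97-fold with E3 at 2 hr. *Plk3* rose by 3.17 and 2.84 at 2 hr and differed from saline by 0.00 and -0.31 at 24 hr. *Fam64a*, read from a probe under its older clone name, rose by 3.66 and 3.47 at 2 hr and stayed higher at 24 hr by 2.35 and 2.77. *Mad2l1* and *Fam64a* were thus still raised at 24 hr, when *Plk2* and *Plk3* were not called. These 3 genes were named after their values were seen.

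The spread between arrays differed by group. The median SD over the 51 genes was 0.59 among the saline arrays, 0.51 for E3 and 0.30 for E2 at 2 hr, 0.28 for E3 and 0.13 for E2 at 24 hr, while over all probes it was 0.13 to 0.17. It was thus above that of all probes in every group but E2 at 24 hr, where all probes had 0.14. Of 29 genes with more than 1 tested probe, all probes were called higher at 24 hr after E2 for 18 genes, some for 8, and none for 3.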

How the data were processed

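Uterine RNA was measured on 15 one-color Agilent arrays, 3 in each of 5 groups. The authors deposited the scanner output of each array, extracted with Agilent Feature Extraction 9.5 per the submitters' processing notes, and the background-corrected, processed Cy3 intensity of each spot was used. A deposited series table held the same intensity values (largest relative difference 0). Control spots and outlier flags were left out, spots of a probe were averaged, and log2 intensity was centered on the 75th percentile of each array, which lay between 2845 and 4187. Of 41174 probes, those that stood above background on 2 or more arrays within some group were tested, 34765 (34756 in comparisons with E2 at 2 hr). Groups followed the labels, and 5 group means were fitted with limma 3.58.1 in R 4.3.3 (package data.table, version 1.17.8), with empirical Bayes and Benjamini-Hochberg adjustment over all probes. A call required p below 0.001 and a 2-fold change. Figures and promoter searches used Python 3.11.15 and matplotlib 3.10.9. The fit was tested on simulated data.

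Each gene was read from its brightest probe, matched by name or older alias, and 4 genes were matched under an older or clone name. The genes and lists were chosen with earlier results of these data known. The text names *Mad2l1*, 4 late transcripts, the highest and lowest gene of each role group after E2 at 24 hr, genes called at 2 hr, between compounds, in the interaction, for 1 compound alone or never, and the 3 leading genes of each other list. *Ncaph2* and *Prss1*, from the other lists, were not matched to a probe. Alternatives covered background correction, scaling, filters, thresholds, probe choice, slide and replicate blocks, and leaving out each array. The array set without high *Ms4a1* and the lymphoid covariate were chosen after seeing the data. Deviations of arrays with the same replicate number correlated above 0.1 in all 3 pairs between E3 at 2 and 24 hr, and in no other comparison in all pairs; the labels give no reason for a pairing. The p-values measure only the spread between these samples, which may be technical.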

Additional observations from a re-analysis of the deposited data

Results flagged for a closer look

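For 12 of the 50 late genes the E3 minus E2 difference was called lower at 24 than at 2 hr by the test of that change in limma. The same held for 4.41% of all probes. The difference at 24 hr was small for some of these genes, as for *Bub1b*, which went from 1.11 to -0.07, and *Kif22*, from 1.93 to -0.19. The change, in log2, was -3.05 for *Top2a*, -2.83 for *Cdca5*, -2.42 for *Aurkb*, -2.11 for *Kif22*, -2.05 for *Cdc2a*, and -2.01 for *Foxm1*. It was -1.74 for *Cenph*, -1.63 for *Ncaph*, -1.55 for *Anln*, -1.33 for *Plk4*, -1.19 for *Incenp*, and -1.18 for *Bub1b*. Other probes of some genes were not called: for *Top2a* 1 of 3 probes was, with a range from -3.05 to -1.12, and for *Cdc2a* and *Anln* 1 of 2. For *Mad2l1* the change was -1.27, given as a value with no test, since its 2 hr values set it apart. The E2 arrays at 2 hr differ from the others in strain, slide, scanner, and day, which cannot be told apart from the compound in this comparison.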

How the results depend on the processing

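The counts of genes higher than saline at 24 hr held under every alternative run, within 1.5 times. With 1 array left out they ranged from 44 to 46 after E2 and from 37 to 45 after E3. Comparisons that involve 2 hr depended on single arrays. All counts here are over the 51 genes, and those that use 2 hr values may include *Mad2l1*, from which nothing is read there. With 1 array left out, the ranges were 3 to 5 genes for E2 at 2 hr, 1 to 5 for E3 at 2 hr, 4 to 26 for E3 against E2 at 2 hr, 17 to 42 for E3 at 24 against 2 hr, and 8 to 22 for the change of the compound difference. The extremes of the last came without saline replicate 2 (22) and without replicate 3 of E3 at 24 hr (8). E3 at 24 against 2 hr gave 17 to 18 without replicate 1 or 2 of either E3 group.

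With an adjusted p below 0.05 and 2-fold as the rule, the counts were 11 for E2 at 2 hr, 5 for E3 at 2 hr, 1 for E3 against E2 at 24 hr (*Cdca5*), 32 at 2 hr, 44 for E3 between the times, and 32 for the change. With no minimum fold, E3 at 2 hr had 3 calls and E3 against E2 at 24 hr had 1, *Mad2l1* with -0.78. E3 at 2 hr had 3 calls under quantile normalization and 2 with signals above 100. E3 against E2 at 2 hr had 10 under normexp and 9 with no scaling. Leaving out the arrays of high *Ms4a1* kept a single array of E3 at 2 hr, so no count that uses that group is given. The count was then 1 for E3 against E2 at 24 hr, and the *Mad2l1* change was -1.08 against -1.27. The lymphoid covariate gave 3 and 6 for E3 against E2 at 2 hr and the change. The direction turned for *Cdc2a* after E2 at 2 hr (0.0018) and *Bub3* after E3 at 24 hr (-0.0617) with the mean of all probes, and for *Ube2c* after E2 at 2 hr without saline replicate 3 (-0.0768, with a range up to 0.37). The cause was not tested.

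Normexp moved the median of all probes from -0.01 to 0.30 for E3 at 24 hr and from 0.06 to 0.42 for E3 against E2, and the share of calls that were higher from 48.2% to 88.5% for E3 and from 38.5% to 55.2% for E2 at 24 hr. The medians of the 51 genes under normexp were 2.07 for E3 at 24 hr and -0.28 for E3 against E2. Quantile normalization gave 58.6% for E3. With the replicate number as a block, 46 and 43 genes were called at 24 hr, 11 for E3 against E2 at 2 hr, 22 for E3 between the times, and 11 for the change. Of 30 same-number pairs of arrays, 10 correlated above 0.1 (range -0.47 to 0.55), so the numbers did not pair the samples as a whole. The exception was E3 at 2 and 24 hr, where all 3 pairs did (0.115 to 0.551), and there the block gave 21 genes higher and 1 lower, against 27 and 1.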
